A study of Caenorhabditis elegans with 2 samples.

Results

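Regions of RBM-26 chromatin immunoprecipitation that lie between divergent gene pairs were described in whole young adult Caenorhabditis elegans. A gene pair is divergent where the left gene is on the minus strand and the right gene on the plus strand, so that the stretch between them holds the starts of both. The regions were taken from a conservative list in which the authors kept peaks that were reproducible between replicates. Overlapping rows of that list were merged, which left 2416 regions on the 6 nuclear chromosomes, each placed by its summit, the base of highest signal. Summits at small RNA genes (less than or equal to 250 bp from a gene for a miRNA, snRNA, snoRNA or tRNA) were dropped, and 2159 regions were kept. Of these, 460 had their summit between divergent protein-coding genes, which is 21.3% of the kept regions (95% Wilson interval 19.6% to 23.1%). The list of replicate 2 alone gave 285 such regions and that of replicate 1 alone 374. All intervals given here cover counting error only.

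The series had 1 group with 2 biological replicates and no second group. The worms were of strain OP801 and carried wgIs801, an integrated fosmid transgene with the gene B0336.3 (rbm-26) fused to a TY1, EGFP and 3xFLAG tag and with unc-119(+), in an unc-119(tm4063) background. They were collected as whole animals at 66 hours, after synchronisation by bleaching and starvation of first-stage larvae, and chromatin was precipitated with an antibody to GFP. Both libraries came from this single transgenic line, the labels name no change to the untagged rbm-26 gene, signals of all tissues were averaged, and no control immunoprecipitation was analysed here. The regions share these libraries and are not replicates of one another, so counts, shares and medians are given without a test.

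RBM-26 is an RNA-binding protein, and its human relatives RBM26 and RBM27 act in the decay of nuclear RNA. Genes of C. elegans lie close together, and 2 genes that point away from each other often have their promoters within a short shared stretch of DNA, from which RNA polymerase can set out in both directions. Many worm genes are trans-spliced, so their annotated start lies at the splice site and the true site of initiation lies farther upstream, within such a gap. Many others are the first gene of an operon, a run of genes on the same strand transcribed from 1 promoter.

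The sequences of short gaps show how close a summit can lie to both genes. Of 507 divergent gaps of at most 300 bp, 40 held a summit, a lower share than the 10.2% of all divergent gaps. Over gaps of all kinds and lengths the share was 6.49%. The 5 of highest signal among those on chromosomes II to V and X are printed whole, because each contains everything that lies between the 2 annotated starts. Sequences are from the WBcel235 (ce11) reference, and capitals mark the 21 bases centred on the summit.
fbxb-85/hex-3, chrIII:10848964-10849221, plus strand: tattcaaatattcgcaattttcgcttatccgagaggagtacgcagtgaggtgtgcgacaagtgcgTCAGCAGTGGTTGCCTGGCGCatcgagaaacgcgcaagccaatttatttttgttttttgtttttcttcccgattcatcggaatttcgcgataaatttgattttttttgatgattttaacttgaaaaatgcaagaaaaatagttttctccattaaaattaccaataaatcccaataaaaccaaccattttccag
jmjd-4/mev-1, chrIII:10334019-10334276, plus strand: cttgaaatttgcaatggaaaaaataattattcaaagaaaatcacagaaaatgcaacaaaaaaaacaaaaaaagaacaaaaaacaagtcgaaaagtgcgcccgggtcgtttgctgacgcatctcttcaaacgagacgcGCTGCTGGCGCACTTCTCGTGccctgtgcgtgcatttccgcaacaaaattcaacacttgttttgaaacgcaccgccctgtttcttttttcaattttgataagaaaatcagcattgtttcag
ears-2/uncp-18, chrIV:390469-390559, plus strand: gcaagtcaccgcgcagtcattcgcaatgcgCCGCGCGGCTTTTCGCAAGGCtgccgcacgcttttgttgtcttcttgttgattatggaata
rpl-7A/set-21, chrIV:4390591-4390843, plus strand: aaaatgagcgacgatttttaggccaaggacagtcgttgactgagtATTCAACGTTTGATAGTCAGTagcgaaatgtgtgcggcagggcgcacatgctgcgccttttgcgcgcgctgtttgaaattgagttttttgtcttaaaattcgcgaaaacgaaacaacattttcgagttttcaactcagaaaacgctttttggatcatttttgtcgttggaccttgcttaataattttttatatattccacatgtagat
dnsn-1/C24H12.4, chrII:410933-411221, plus strand: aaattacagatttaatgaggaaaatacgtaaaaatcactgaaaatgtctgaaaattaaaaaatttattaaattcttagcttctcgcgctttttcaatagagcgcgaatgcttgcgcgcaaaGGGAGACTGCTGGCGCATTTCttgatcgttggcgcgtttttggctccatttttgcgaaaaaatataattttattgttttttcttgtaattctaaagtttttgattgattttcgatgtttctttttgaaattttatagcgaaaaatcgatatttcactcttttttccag

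The fbxb-85/hex-3 gap lies between a gene for an F-box protein and a gene for a hexosaminidase, and its region had a deposited signal of 303.3, with 155.6 in the ranked list of replicate 1 and 144 in that of replicate 2. The ranked lists of the replicates were made separately, so a level in one cannot be set against a level in the other. The gap between jmjd-4, which encodes a jumonji-domain protein, and mev-1, which encodes a subunit of succinate dehydrogenase, had a signal of 294.1. The shortest of the 5, with 91 bp, separates ears-2, which encodes a glutamyl-tRNA synthetase, from uncp-18, annotated in RefSeq as a syntaxin-binding protein. Its summit lay 41 bp from the start of ears-2 and 51 bp from that of uncp-18, with a signal of 278.8 and ranked signals of 134.5 in replicate 1 and 146.1 in replicate 2. The rpl-7A/set-21 gap, beside a gene for a protein of the large ribosomal subunit, had a signal of 255.3, with 118.7 in replicate 1 and 145.6 in replicate 2. The dnsn-1/C24H12.4 gap, with C24H12.4 annotated as an RNA helicase, had 241.6. All 5 overlapped a thresholded region of each replicate. The share of G and C was 53.9% in the ears-2/uncp-18 gap and between 31.1% and 39.5% in the other 4.

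The strongest regions in longer gaps are shown by the summit and 50 bp on each side, again with the central 21 bases in capitals, for 4 of the 9 strongest members on chromosomes II to V and X.
drr-2/set-16, chrIII:13643674-13643774, plus strand: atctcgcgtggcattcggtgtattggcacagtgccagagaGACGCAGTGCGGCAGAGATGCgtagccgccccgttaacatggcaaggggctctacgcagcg
Y22D7AL.10/hsp-60, chrIII:1619043-1619143, plus strand: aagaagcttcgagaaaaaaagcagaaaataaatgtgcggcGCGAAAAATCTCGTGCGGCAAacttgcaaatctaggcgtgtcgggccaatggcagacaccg
rpl-20/Y17G9B.5, chrIV:4750035-4750135, plus strand: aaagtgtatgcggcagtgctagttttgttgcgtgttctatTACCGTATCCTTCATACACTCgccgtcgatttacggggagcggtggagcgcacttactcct
larp-1/wip-1, chrIII:5018282-5018382, plus strand: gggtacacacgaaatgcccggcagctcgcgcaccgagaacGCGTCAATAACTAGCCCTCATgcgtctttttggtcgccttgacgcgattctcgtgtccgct
These windows hold only the bases around the summit, so their shares of G and C are not comparable with those of the whole short gaps. The share was 61.4% at drr-2/set-16, 48.5% at Y22D7AL.10/hsp-60, 50.5% at rpl-20/Y17G9B.5 and 58.4% at larp-1/wip-1.

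Where regions fall relative to gene orientation was asked first. The 460 summits lay in 430 of 4211 divergent gaps, which is 10.2% (interval 9.33% to 11.2%). Over gaps of all kinds the share was 6.49%. Tandem gaps, between genes on the same strand, held one in 586 of 10151 cases (5.77%), and convergent gaps, between the ends of 2 genes, in 92 of 2711 (3.39%). The intervals of the 3 shares, which cover counting only and no difference between libraries, did not overlap. The thresholded list of replicate 2 alone is shorter and gave 6.44% of divergent, 4.02% of tandem and 2.88% of convergent gaps. That of replicate 1 alone gave 8.41%, 4.55% and 2.18%. The shares of tandem and convergent gaps in these lists were computed after the data were seen. Divergent gaps made up 12.9% of the genome and had 35.7 summits per Mb, against 31.5 in tandem gaps, 23.2 in convergent gaps and 15.3 in protein-coding genes. The remaining 962 kept regions had their summit inside a protein-coding gene.

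A divergent gap holds 2 starts and a tandem gap holds 1, so the shares were also counted per start. A summit lay in the gap within 500 bp of 487 of 8422 starts at divergent gaps (5.78%, interval 5.30% to 6.30%), against 298 of 10151 starts at tandem gaps (2.94%, interval 2.63% to 3.28%). A single summit can count for both starts of a divergent gap, and 154 gaps had both starts within reach of a summit while 179 had 1. In gaps of up to 1000 bp the shares were 9.90% of divergent starts and 4.11% of tandem starts. In longer gaps, where no summit can lie within 500 bp of both starts, they were 2.95% and 1.52%.

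**Figure D1:**
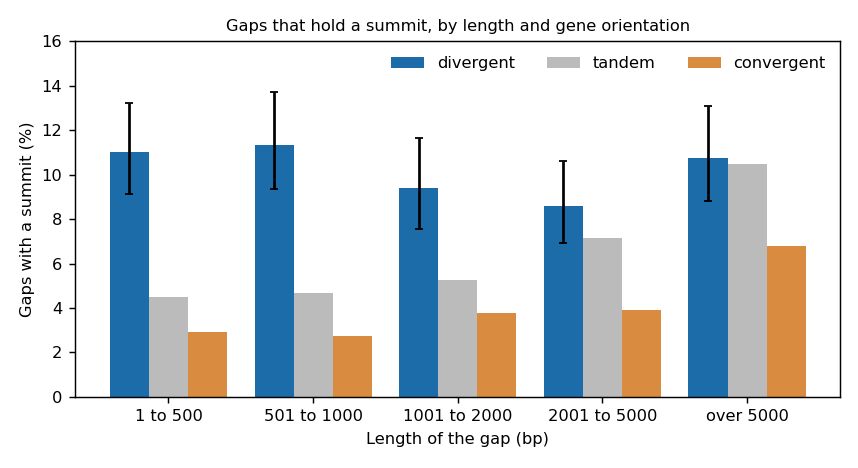
Share of gaps that held a summit (percent, y axis) by length of the gap in bp (x axis), for divergent, tandem and convergent gaps; error bars are 95% Wilson intervals of the divergent share. The divergent share stays between 8.60% and 11.3%, while the tandem share is 4.51% in the shortest class and 10.5% in the longest.

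The plot of shares by gap length shows that divergent and tandem gaps were farthest apart in the short classes. Divergent gaps of up to 500 bp held a summit in 100 of 907 cases (11.0%), against 4.51% of tandem gaps. Above 500 and up to 1000 bp the shares were 11.3% and 4.66%, and above 1000 and up to 2000 bp they were 9.40% and 5.26%. Above 2000 and up to 5000 bp they were 8.60% and 7.17%. Above 5000 bp, 87 of 809 divergent gaps (10.8%, interval 8.80% to 13.1%) and 10.5% of tandem gaps held a summit, so the shares were close there. Per Mb of gap, the longest divergent gaps had 13.2 summits and the longest tandem gaps 15.6, while the shortest had 388.4 and 206.6. Gaps with a summit had a median length of 1299 bp, close to the 1404 bp of all divergent gaps. In tandem gaps the medians were 1422 bp with a summit and 866 bp overall.

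Summits lay near the starts. The median distance to the nearer annotated start was 230.5 bp (quartiles 123.2 and 552), and to the farther start 1118 bp. Within 500 bp of a start lay 339 summits (73.7%), while such bases made up 25.9% of divergent gap sequence. Within 500 bp of both starts lay 148 summits (32.2%), while such bases made up 3.73%. Between 100 and 200 bp from the nearer start there were 111 summits, or 149.2 per Mb, the densest of the 100-bp steps up to 1000 bp. At up to 100 bp there were 116.3 per Mb, and at 400 to 500 bp 45.8. Farther out, 40 summits lay over 2000 bp from any start in the gap and 5 of these over 5000 bp.

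**Figure D2:**
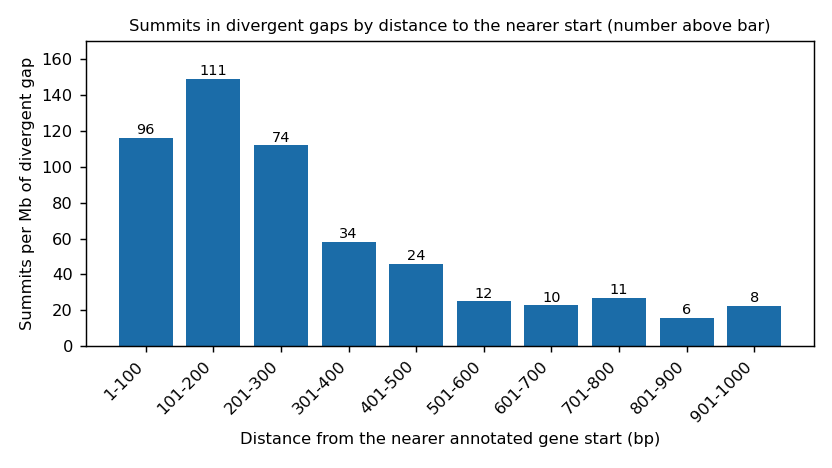
Summits per Mb of divergent gap (y axis) by distance in bp from the nearer annotated gene start (x axis); the number above each bar is the number of summits. Density is highest at 100 to 200 bp, with 111 summits and 149.2 per Mb, and is 45.8 per Mb at 400 to 500 bp.

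The minus-strand gene was nearer in 233 cases (50.7%, interval 46.1% to 55.2%) and the plus-strand gene in 226, and 1 summit, between the proteasome gene rpn-2 and C23G10.7, lay 385 bp from each. Of 3 equal parts of the gap, the middle one held 138 summits, which is 30%. The deposited regions had a median width of 620 bp, and 52 of them covered both starts, 173 covered 1 and 235 covered none. In gaps of up to 500 bp, 48 of 100 regions covered both starts, so that in these the lists cannot assign the region to 1 of the 2 genes.

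The deposited signal is the authors' own value for each peak and ranks regions within a list. Members had signals from 47.4 to 607.3 with a median of 160.5, against a median of 137.3 for the other 1699 kept regions. Regions in convergent gaps had a median of 161.6, those in tandem gaps 141.6 and those in genes 133.5, so the higher median was not particular to divergent gaps. Of the 100 kept regions of highest signal, 36 were members, and of the first 20, 10 were. Members therefore took a larger part of the top of the list than their 21.3% of all kept regions.

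**Figure D3:**
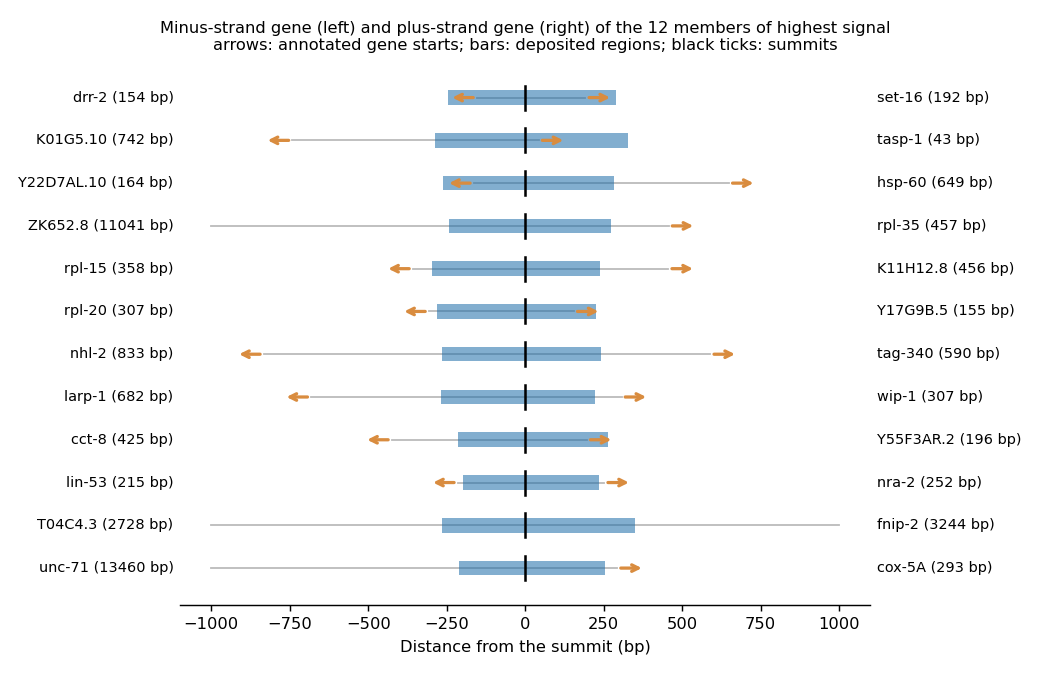
The 12 members of highest deposited signal, from the top down, drawn to scale around the summit (x axis, distance in bp). Bars are the deposited regions, arrows the annotated starts of the minus-strand gene on the left and the plus-strand gene on the right, with the distance to each start in brackets; starts beyond 1000 bp are not drawn. At drr-2/set-16 the region covers both starts, and at T04C4.3/fnip-2 the summit lies 2728 bp and 3244 bp from the starts.

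The strongest member lay between drr-2, which encodes an RNA-binding protein of translation initiation, and set-16, which encodes a histone H3 lysine 4 methyltransferase. Its region, chrIII:13643477-13644012, had a signal of 607.3, with 326.4 in the ranked list of replicate 1 and 292.9 in that of replicate 2. The gap is 345 bp long, and the summit lay 154 bp from drr-2 and 192 bp from set-16, so the region covered both starts. The next, chrIII:10758976-10759590 with a signal of 607.2, lay 43 bp from the start of tasp-1, which encodes the relative of the human protease taspase. Its other neighbour, K01G5.10, started 742 bp away. The ranked signals were 326.7 in replicate 1 and 286.3 in replicate 2.

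Mitochondrial and cytosolic chaperonin genes stood beside 2 of the strongest members. The gap between Y22D7AL.10, annotated in RefSeq as a small mitochondrial heat shock protein, and hsp-60, the mitochondrial chaperonin, had a signal of 575.8. The human genes for the mitochondrial chaperonin and its co-chaperonin are also a divergent pair. The worm summit lay 164 bp from Y22D7AL.10 and 649 bp from hsp-60, and the ranked signals were 320.8 in replicate 1 and 266.4 in replicate 2. The gap between cct-8, a subunit of the cytosolic chaperonin, and Y55F3AR.2 had a signal of 527.0, with the summit 425 bp from cct-8 and 196 bp from Y55F3AR.2.

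Genes of the large ribosomal subunit stood beside 3 of the 12. The ZK652.8/rpl-35 region had a signal of 557.8 in a gap of 11497 bp, where the summit lay 457 bp from rpl-35 and 11041 bp from ZK652.8. At rpl-15/K11H12.8 the signal was 553.9, with the summit 358 bp from rpl-15 and 456 bp from K11H12.8. At rpl-20/Y17G9B.5 it was 553.1, with 307 bp to rpl-20 and 155 bp to Y17G9B.5. The 3 regions had ranked signals of 277.1, 304.8 and 273.0 in replicate 1, and of 288.9, 250 and 292.3 in replicate 2.

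The other 5 of the 12 adjoin genes of varied function. The nhl-2/tag-340 gap, beside a gene for a cofactor of microRNA silencing, had a signal of 541.8, and larp-1/wip-1, beside a gene for a La-related RNA-binding protein, had 534.5. The lin-53/nra-2 gap on chromosome I, beside the gene of a histone-binding protein, had 497.3. At T04C4.3/fnip-2 the signal was 488.1, and the summit lay far from both starts, 2728 bp and 3244 bp away. At unc-71/cox-5A it was 461.1 in a gap of 13752 bp, with the summit 293 bp from cox-5A, which encodes a subunit of cytochrome c oxidase. All 12 overlapped a region in the thresholded list of each replicate.

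At the other end of the list, the region of lowest signal, 47.4, lay in the 13137 bp gap between din-1 and ghi-1, with its summit 3263 bp from din-1. It had a ranked signal of 51.9 in replicate 1 and no match in the ranked list of replicate 2. The next lowest lay at lipl-7/tkt-1 (79.4), Y50D4A.6/Y50D4A.5 (82.05) and R03E9.2/mdl-1 (85.8). At R03E9.2/mdl-1 the ranked signal was 120.7 in replicate 1 and 45.8 in replicate 2. Of these 4, lipl-7/tkt-1 overlapped a thresholded region of replicate 2, and none overlapped one of replicate 1.

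How far the 2 replicates gave the same members was counted in their own thresholded lists. Of the 460 members, 236 (51.3%, interval 46.7% to 55.8%) overlapped a region in both lists. A further 100 did so only with replicate 1 and 29 only with replicate 2, which left 95 that overlapped no thresholded region of either. Of the other 1699 kept regions, 706 (41.6%, interval 39.2% to 43.9%) overlapped both lists and 421 neither. The authors kept a row of the conservative list only where the replicates agreed on it, so these shares do not test reproducibility. The series also has 1 pooled ranked list, separate from the ranked lists of the replicates. Of its 17341 kept regions, 12.4% overlapped a region of the conservative list. This share was 26.5% in divergent gaps, 22.9% in tandem gaps, 18.5% in convergent gaps and 7.81% in genes.

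**Figure D4:**
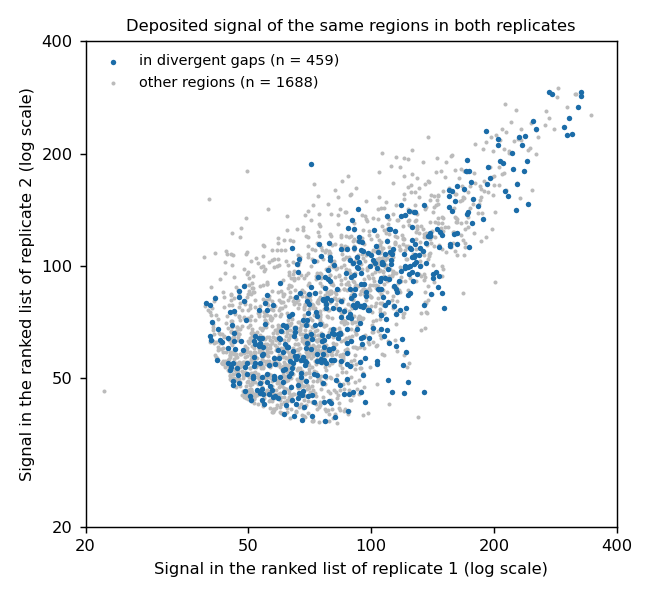
Deposited signal of regions matched in the ranked lists of both replicates, with replicate 1 on the x axis and replicate 2 on the y axis, both on log scales; blue points are the 459 members matched in both lists, and grey points the 1688 other kept regions. Most members of high signal in one list are high in the other, and the spread is widest at low signal.

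The plot of the ranked signals includes 459 members that had a match in both ranked lists. Their medians were 86.0 in the list of replicate 1 and 76.8 in that of replicate 2. The rank correlation between the replicates was 0.70 over these members and 0.57 over the 1688 other regions, as a description of points that share the same 2 libraries.

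Which kinds of genes adjoin the members was counted for 22 lists of genes by symbol, given with all divergent gaps beside a gene of each list. Gaps beside any listed gene held a summit in 104 of 1020 cases (10.2%), the same as the 326 of 3191 (10.2%) beside none, but the lists differed widely. The intervals of 7 lists lay above the 10.2% over all divergent gaps, and those of 4 lay below it. These groups can be seen in the plot by kind of flanking gene.

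**Figure D5:**
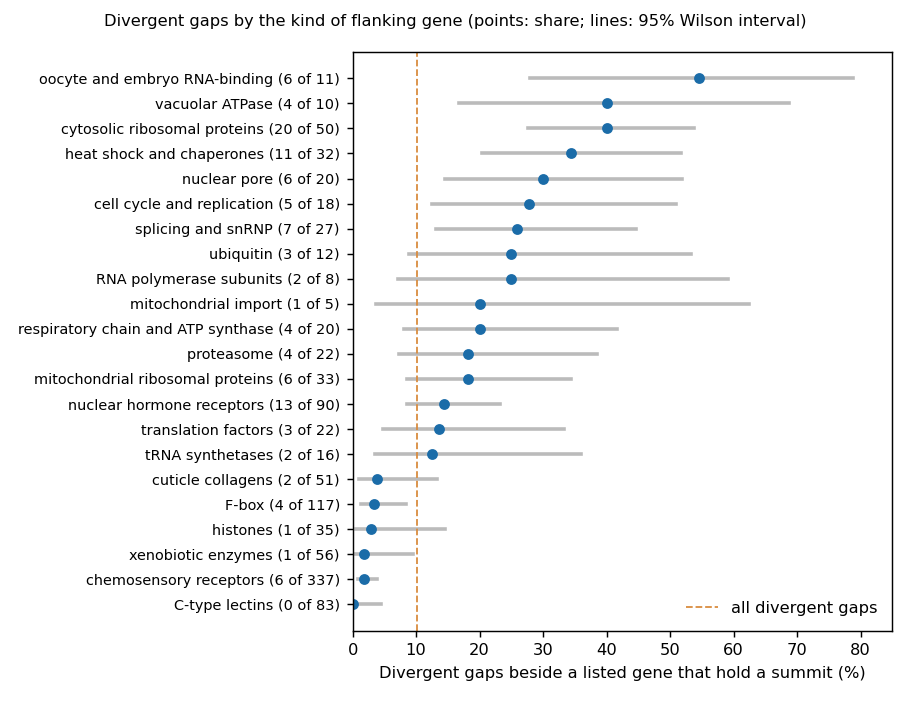
Share of divergent gaps beside a gene of each list that held a summit (percent, x axis), with 95% Wilson intervals; the numbers of gaps with a summit and of all gaps are in brackets, and the dashed line is the 10.2% over all divergent gaps. Intervals of the 7 lists at the top lie above the dashed line, and those of F-box genes, xenobiotic enzymes, chemosensory receptors and C-type lectins lie below it.

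Cytosolic ribosomal protein genes had a member in 20 of 50 divergent gaps (40%, interval 27.6% to 53.8%), and 14 of the 20 overlapped both replicates' lists. In 9 of the 20 the ribosomal gene was the nearer of the 2, so in the other 11 the summit lay closer to the partner. After the 3 in the top 12, rps-19/hsr-9 had a signal of 419.9, ifet-1/rps-1 331.9 and rps-15/F36A2.9 323.0. Genes of translation factors had one in 3 of 22 gaps, namely iff-2/F54C9.14 (369.6), ifet-1/rps-1 and ctf-4/eef-1G (179.4). The summit of ctf-4/eef-1G lay 3 bp from the start of eef-1G, an elongation factor subunit. Mitochondrial ribosomal protein genes had one in 6 of 33 gaps, with a highest signal of 168.5 at Y39A1A.22/mrpl-12. Genes of tRNA synthetases had one in 2 of 16, ears-2/uncp-18 and aars-1/rga-1 (133.2).

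Chaperone and heat shock genes had a member in 11 of 32 gaps (34.4%, interval 20.4% to 51.7%), and all 11 overlapped the lists of both replicates. After hsp-60 and cct-8, hsp-3, which encodes a chaperone of the endoplasmic reticulum, was the strongest, with a signal of 390.3 and the summit 72 bp from its start. In 2 of the 11 the listed gene was the nearer one, and Y22D7AL.10, itself annotated as a heat shock protein, was not on the list. The known divergent pairs of small heat shock genes had no member. In the pooled ranked list of the series, the hsp-16.2/hsp-16.41 gap had a highest signal of 75.8. Neither gap between hsp-16.1 and hsp-16.48 had a region in that list. Both of these gaps carry the same gene names, and reads may not be placed among copies, so this absence is uncertain.

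Genes for RNA processing and nuclear structure followed. Splicing genes had a member in 7 of 27 gaps, with signals of 225.7 at prp-19/K10D2.5, 206.9 at rsp-2/rsp-1 and 195.0 at clu-1/prp-40. The rsp-2/rsp-1 gap of 406 bp has a gene for an SR splicing factor on each side, and its summit lay 231 bp from rsp-2 and 176 bp from rsp-1. Nuclear pore genes had one in 6 of 20 gaps, led by npp-3/top-2 (339.1), where top-2 encodes a DNA topoisomerase. Genes of RNA polymerase subunits had one in 2 of 8, daf-5/rpb-11 (201.8) and rpb-12/aly-2 (177.2). Cell cycle and replication genes had one in 5 of 18, led by cdk-7/Y39G10AR.11 (223.1).

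The list of oocyte and embryo genes had a member in 6 of 11 gaps (54.5%, interval 28.0% to 78.7%). It takes every puf gene by symbol, and a role of each gene in oocytes or embryos was not checked. These were dct-11/puf-9 (355.6), vha-18/pos-1 (211.0), W03C9.5/mex-1 with 2 members, Y52D5A.2/rme-2 (195.6), spn-4/spe-39 (183.4) and rec-8/mex-5 (120.1). Of the 6 listed genes 5 encode RNA-binding proteins, whereas rme-2 encodes the yolk receptor. At W03C9.5/mex-1 the stronger summit, with 207.6, lay 178 bp from mex-1, and the weaker, with 131.8, lay 124 bp from W03C9.5. Each start of this 1092 bp gap thus had a summit of its own.

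Genes for organelles and protein turnover had smaller numbers. Vacuolar ATPase genes had a member in 4 of 10 gaps, led by vha-18/pos-1. Genes of the respiratory chain and ATP synthase had one in 4 of 20, mitochondrial import in 1 of 5, the proteasome in 4 of 22 and the ubiquitin list in 3 of 12. The hsp-110/rpn-3 gap of 443 bp joins a chaperone gene and a proteasome gene, and its summit, with a signal of 214.0, lay 232 bp and 212 bp from the starts. Nuclear hormone receptor genes had one in 13 of 90 gaps (14.4%), led by dnj-19/nhr-47 (307.3), whose summit lay 3 bp from nhr-47.

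Chemosensory receptor genes had one in 6 of 337 gaps (1.78%, interval 0.82% to 3.83%). The strongest, rsr-1/sri-5 with 331.5, had its summit 242 bp from sri-5. A weaker one, sec-24.1/srgp-1 (177.2), adjoins srgp-1, which matches the pattern of the list and is not a receptor. F-box genes had one in 4 of 117, xenobiotic enzymes in 1 of 56 (ugt-12/T19H12.2, 150.6), cuticle collagens in 2 of 51 and C-type lectins in 0 of 83. Both collagen gaps, col-38/rpl-5 (156.0) and Y41D4A.7/col-108 (135.0), had another kind of gene on the other side.

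Histone genes are mostly arranged as divergent pairs, and 31 gaps had a histone gene on each side, with lengths from 227 to 368 bp. The his-67/his-68 gap on chromosome I held the only summit among them, with a signal of 224.6, 123.4 in the ranked list of replicate 1 and 99.7 in that of replicate 2. A region of the conservative list touched 3 of the 31 gaps. Many of these pairs are near-identical copies, among which reads may not be placed, so the low count is uncertain.

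Of 221 divergent gaps with a listed gene on each side, 10 had a member. Among them were nhr-274/rps-28 (271.5), in a gap of 14392 bp with the summit 449 bp from rps-28, and tin-9.1/nhr-105 with 2 members (127.7 and 101.4).

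The genes downstream of the flanking genes were counted as a proxy for operons. Of the 860 genes at gaps with a member, 229 (26.6%, interval 23.8% to 29.7%) were followed within 500 bp of their end by a gene on the same strand. Of the 7562 genes at divergent gaps without a member, 1304 were (17.2%, with an upper bound of 18.1%). The share was 25.1% for the genes nearer to a summit and 27.3% for the farther ones, so it did not mark the nearer gene. Both genes were followed in 40 of the 430 gaps with a member (9.30%), against 151 of 3781 without (3.99%). The median gene length was 2696 bp at gaps with a member and 1947 bp at gaps without.

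In 22 gaps there was more than 1 member, 52 in all, and these gaps had a median length of 5295 bp, from 1092 to 15313 bp. The longest of them, between F54F12.1 and Y39E4B.6 on chromosome III, held 4, with signals of 158.9, 185.8, 108.7 and 204.0. Each of the 2 strong summits of vps-4/gsa-1 (218.5 and 217.9) lay near its own start, 252 bp from vps-4 and 211 bp from gsa-1. At hcp-3/hlh-11, where hcp-3 encodes the centromeric histone, the summit of 382.1 lay farther out, 673 bp from hcp-3, and that of 264.2 lay 288 bp from hlh-11. In ntl-11/Y73F8A.27 the summits of 364.6 and 222.7 lay 98 bp from ntl-11 and 209 bp from Y73F8A.27. In contrast, F38A6.4/hif-1, beside the gene of the hypoxia-inducible factor, had its strongest summit of 3 (212.5) 3052 bp from F38A6.4 and 1986 bp from hif-1. Its weakest (96.35) lay 171 bp from hif-1. These gaps are examples, and how many of the 22 had a summit near each start was not counted.

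Non-coding genes also lie in these gaps. The summit lay inside a gene of class ncRNA in 44 cases, the strongest at nhl-2/tag-340 in F26F4.14, and inside a lincRNA gene in 3. The share of gap sequence inside such genes was not computed, so these counts do not show whether summits favour them. Of these 3, linc-91 lies in the chd-7/W09C3.4 gap, with a signal of 270.6, linc-90 lies between gei-4 and pll-1, with 252.8, and linc-129 lies between sca-1 and sbsp-1, with 125.8. A further 46 summits in divergent gaps were dropped at small RNA genes, of which 27 were nearest to a tRNA gene, 11 to a snoRNA gene, 5 to a snRNA gene and 3 to a miRNA gene. Over the whole list this drop left 2159 of 2416 regions. The median signal was 160.5 for the members and 181.6 for the dropped summits. The dropped summit farthest from such a gene lay 223 bp away, between Y38E10A.22 and Y38E10A.24 (181.5). The nearest one kept lay 295 bp away, between Y87G2A.18 and Y87G2A.1 (134.9).

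Base composition was compared between windows at the member summits, windows at the middle of all 4211 divergent gaps and windows at the other kept summits. The middle is the point of a gap farthest from both starts, while member summits lay a median of 230.5 bp from the nearer start. In gaps shorter than the window, the window at the middle runs past the starts. Comparisons with the middles, here and below, therefore also compare different positions. Over the summit and 50 bp on each side, the median share of G and C was 49.5% at member summits, 33.7% at the middles and 44.6% at the other summits. At 410 of the 460 summits (89.1%) it was higher than the mean of the flanks 500 bp away, by a median of 11.9 percentage points. The ratio of observed to expected CpG was 1.25 at member summits, 1.07 at the middles and 1.13 at the other summits.

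Of 10 motifs searched on both strands within 150 bp on each side of the summit or middle, GAGAGA was the most frequent at member summits, in 216 windows (47.0%, interval 42.4% to 51.5%), against 17.2% of the middles and 34.4% of the other summits. CTGCGTC was found at 19.1% of member summits, 3.30% of the middles and 12.9% of the others. CCGCCC was found at 16.3%, 6.41% and 10.9% of the 3 sets, and TTCCCGC, of the type bound by E2F, at 10.7%, 3.42% and 5.77%. CACGTG, the E-box, was found at 11.1% of member summits, 4.42% of the middles and 12.4% of the others, so that it was no more frequent than at the other kept regions. Among motifs rich in A and T, TATAAA was found at 20.2% of member summits, 35.4% of the middles and 22.8% of the others, and AAAAAAAA at 22.0%, 33.0% and 20.7%. TTTCAG, which resembles the splice acceptor, was at 32.2%, 45.1% and 37.3%. TGATAA, the GATA site, was at 22.2%, 27.7% and 25.6%, and GAANNTTC, from the heat shock element, at 17.4%, 18.8% and 16.3%. The 3 sets differ in base composition and in position, and the part of either in these shares was not tested.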

How the data were processed

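ChIP-seq of GFP-tagged RBM-26 was made by the authors in 2 biological replicates of whole young adults, and peak lists on ce11 were deposited, per the labels. What aligner and peak caller were used is not given in the sources used here. The read depth of the libraries is unknown. The deposited signal (the seventh column of each list, the authors' own value per peak) was compared only within a list, and between the replicates' lists only by rank. The other column used holds the authors' summit offset. All 3045 rows of the conservative list, thresholded on the irreproducible discovery rate by the authors, were read, of which 3035 lie on the nuclear chromosomes. Overlapping rows were merged and kept the summit and signal of the strongest row.

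Gaps are the maximal stretches outside all protein-coding genes of Ensembl release 115 (WBcel235). Distances are from the summit to the annotated starts. An overlap with a replicate's list needed 1 bp. Gene lists were matched by symbol, and the genome sequence and names of unnamed genes came from RefSeq. Members, gene lists and motifs were chosen with earlier results of these data known. Named genes are the 12 members of highest signal, the 6 strongest in gaps of at most 300 bp not on chromosome I, up to 3 per list, members between 2 listed genes, known heat shock and histone pairs, the 4 weakest and the gaps with most members. The pairs with a summit at each start, hcp-3/hlh-11, F38A6.4/hif-1 and those with summits in non-coding genes were named after their values were seen. Some items that this rule names are not reported here. No model was fitted. Code for gaps and merging was tested on simulated intervals. Python 3.11.15, NumPy 2.4.6, SciPy 1.17.1 and matplotlib 3.10.9 were used. Alternatives covered the list, the threshold, merging, the drop at small RNA genes, the extent of genes and the window.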

Additional observations from a re-analysis of the deposited data

How the results depend on the processing

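With the list of 1 replicate alone, the number of members was 285 to 374, the share of divergent gaps with a member 6.44% to 8.41%, the median length of those gaps 1264 to 1494 bp and the median distance to the nearer start 243 to 244.5 bp. The list without replicate 1 gave the lower number, share and length. With only the 50% of regions of higher signal there were 272 members, 26.1% of them, in 6.25% of the gaps, with a median distance of 243 bp. With genes cut to their coding extent the share of kept regions was 24.7% and the distance 281.5 bp, and with rows not merged they were 18.9% and 242 bp. The distance was 234.5 bp with the wider list and 247.5 bp with no drop at small RNA genes. The share of members found in both replicates' lists was 51.1% when the overlap had to cover 50% of the narrower interval and 50.2% with summits within 150 bp. The share with each motif was lower for all 10 motifs within 50 bp of the summit than within 150 bp. The smaller window holds fewer bases, but the drop differed between motifs. GAGAGA went from 47.0% to 24.1% and CTGCGTC from 19.1% to 11.1%, while TATAAA went from 20.2% to 3.48% and AAAAAAAA from 22.0% to 3.04%. The part of window size in these drops was not tested. No paired analysis was possible because there was 1 group and no result came from a test. Depth is unknown, so a gap without a member may hold signal below the authors' threshold.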

Other observations

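The share of divergent gaps with a member was 14.2% on chromosome III and 13.6% on chromosome I, against 10.6% on IV, 9.30% on X, 8.16% on II and 7.71% on V. Gaps that hold a member were shortest on chromosomes I and III, with medians of 944 and 949 bp, and longest on X, with 3440 bp. The members' median signal lay between 147.3 on V and 173.4 on III. Over all kept regions the median was also lowest on V (134.2) and highest on III (151.6), so this order was not particular to members. Members made up between 19.4% (II) and 23.0% (I) of the kept regions of a chromosome.

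All 7-letter sequences were ranked by how much more often they occurred within 50 bp of member summits than at the middles of divergent gaps, on either strand, so the following were chosen after their values were seen. CTGGCGC was found at 47 member summits (10.2%), at 0.97% of the middles and at 3.06% of the other kept summits. AACGCGC was at 46 member summits (10%), 1.16% of the middles and 3.12% of the others. GAGACGC was at 10.9% of member summits, 1.16% of the middles and 7.59% of the others. Of the 5 short gaps printed above, 3 held CTGGCGC on one strand, in each case within the 21 bases at the summit. The gaps were fbxb-85/hex-3, jmjd-4/mev-1 and dnsn-1/C24H12.4. All 5 printed gaps hold members whose summits were used in the ranking, so they are no separate evidence for CTGGCGC. Of the other 11 highest-ranked sequences, none lay within the 21 bases of any of the 5. AACGCGC was elsewhere in 2 of the 5 gaps and GAGACGC in 1.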
